A study of Mus musculus with 23 samples.

Results

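The genes described here are 37 genes of autophagy and of the lysosome, taken as a named list and matched by RefSeq accession to the probes of a mouse gene expression array. All 37 were measured, among 23716 features tested, 15468 of which carry a gene symbol. The rule names the genes by function, but the list was drawn up with earlier results of these data known. Each gene is represented by its brightest probe. The array measured RNA of gastrocnemius, a mostly fast-twitch calf muscle, from male C57BL/6J mice that entered the study as adults of 5 months or as old animals of 24 months. All mice were housed singly on the same chow, and the labels name no genetic change in any group. High-intensity intermittent training (HIIT) meant 3 treadmill bouts at 27 m/min, each lasting 2 min and parted by slow steps at 5 m/min for 1 min. Moderate-intensity continuous training (MICT) meant 45 min of running at 13 m/min. Both were done daily for 4 weeks, and sedentary controls of each age were placed on a treadmill that was switched off. There were 4 arrays each of adult controls, adult HIIT, old controls, old HIIT and old MICT, and 3 of adult MICT, whose replicate 2 is not analysed here. The muscle was taken after a rest of 12 h that followed physiological measurements, so the values describe the RNA at that single time.

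Autophagy encloses pieces of cytoplasm in a double membrane, the autophagosome, and delivers them to the lysosome for digestion. The ULK1 kinase complex starts the process, a class III phosphatidylinositol 3-kinase (PI3-kinase) marks the membrane with the lipid PI3P, and WIPI proteins read that mark. ATG proteins then attach members of the Atg8 family, such as LC3, to the growing membrane, where receptors such as p62 tether the cargo, mitochondria included. Lysosomal enzymes and membrane proteins finish the work, and the transcription factor TFEB drives many of their genes. In skeletal muscle autophagy is known as a route of protein and organelle turnover during fasting, exercise and disuse. Transcript levels do not report how much material passes through the pathway.

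Levels are given on a log2 scale relative to the 75th percentile of the same array, so a level of 0 equals that percentile, and a difference of 1 is a doubling of signal. Levels of different genes were not compared, since each comes from its own probe. A gene was called when its Benjamini-Hochberg adjusted p from limma, computed over all 23716 features, was under 0.05, and SE from limma follows the ± sign. All 37 probes were well above background in every group. The arrays lie on 3 slides. Slide 1 holds adult controls and adult HIIT, slide 2 adult MICT and old controls, and slide 3 old HIIT and old MICT. Between 47.2% and 58.9% of gene spots were well above background on an array. All 8 muscle fibre markers, among them Acta1 and Ckm, were well above background on all 23 arrays.

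TFEB, whose own gene Tfeb is on the list, is known to bind the E-box CACGTG, in particular the form TCACGTG, in promoters of lysosome and autophagy genes. Promoter sequences of 300 bases, from 250 before to 50 after the annotated start, were found in RefSeq (assembly GRCm38.p6) for 29 of the 37 genes. Searched on both strands, CACGTG occurred in 8 of the 29 genes (27.6%), against 8.09% of 27018 genes of the same promoter table. TCACGTG, which contains the shorter motif, occurred in 5 (17.2%), against 4.29%. The FOXO site GTAAACA occurred in 0 of the 29, against 4.05%. These shares are descriptions that were not matched for base composition. To show how the motif sits near the start, 5 windows of 150 bases, from 140 before the start, follow in the sense of the gene with each CACGTG in capitals. Lamp1 (chr8:13159021-13159170 on the plus strand), Atg14 (chr14:47568425-47568574 on the minus strand) and Bnip3 (chr7:138909497-138909646 on the minus strand) belong to the genes called higher in old MICT below, whereas Ctsd (chr7:142387818-142387967 on the minus strand) and Atg3 (chr16:45158689-45158838 on the plus strand) do not.
Lamp1: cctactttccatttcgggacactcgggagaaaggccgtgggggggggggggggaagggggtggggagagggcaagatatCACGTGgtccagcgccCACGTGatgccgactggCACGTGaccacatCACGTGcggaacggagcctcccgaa
Atg14: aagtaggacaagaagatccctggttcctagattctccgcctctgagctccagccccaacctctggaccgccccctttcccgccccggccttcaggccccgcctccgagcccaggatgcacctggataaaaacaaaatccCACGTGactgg
Bnip3: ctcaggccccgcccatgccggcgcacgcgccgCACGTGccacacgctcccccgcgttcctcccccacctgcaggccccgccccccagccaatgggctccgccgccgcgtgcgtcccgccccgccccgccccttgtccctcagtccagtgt
Ctsd: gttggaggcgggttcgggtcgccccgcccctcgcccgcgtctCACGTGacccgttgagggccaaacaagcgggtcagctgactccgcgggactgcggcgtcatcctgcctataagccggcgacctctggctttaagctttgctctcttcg
Atg3: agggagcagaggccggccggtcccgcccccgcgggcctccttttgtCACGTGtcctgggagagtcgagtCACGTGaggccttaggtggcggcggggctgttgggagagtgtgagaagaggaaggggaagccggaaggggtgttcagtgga

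The Lamp1 window holds 4 copies, whose first bases lie 61, 45, 28 and 15 bases before the start. Atg3 holds 2, at 94 and 71 bases before it, and Atg14 has 1 that begins 1 base before it. Those of Bnip3 and Ctsd begin 108 and 98 bases before it. Of the 16 genes with a promoter sequence that were called higher in old MICT, 3 held CACGTG (Lamp1, Atg14 and Bnip3), and of the 13 others 5 did (Atg3, Atg5, Atg7, Ctsd and Ctsl).

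The comparison of old MICT with old controls asks what continuous running did to aged muscle. Of the 37 genes, 22 rose and 0 fell. Over all features 21.3% were called higher and 9.03% lower, so the share of these genes called higher was 59.5%, above that background, in a comparison in which many other genes also moved. The median difference of the 37 genes was 0.46, against 0.19 for all features. Of the 37 genes, 21 were higher in every old MICT array than in any old control, as were 16.3% of all features. By step, 3 of 5 genes of the ULK1 complex, 3 of 5 of the PI3-kinase complexes and 3 of 4 of membrane supply and PI3P binding were called higher. So were 4 of 5 Atg8 genes and 5 of 6 genes of cargo receptors and the removal of mitochondria. The conjugation enzymes and the lysosomal genes had 2 of 6 each (33.3%), which is nearer to the 21.3% of all features, and in groups this small it is no result about those steps.

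**Figure D1:**
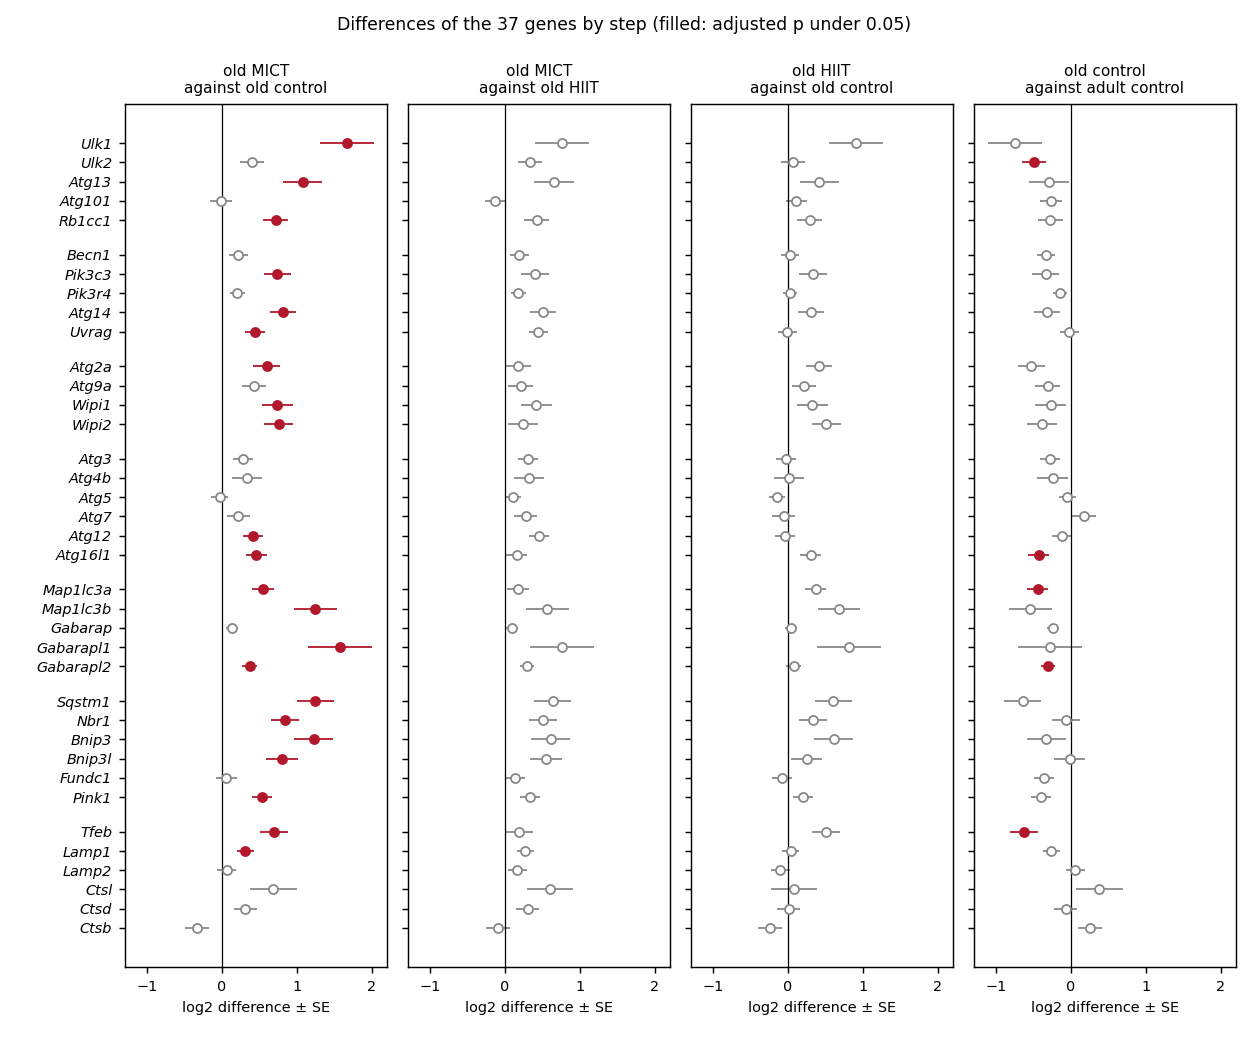
Log2 difference of each of the 37 genes, with limma's standard error, in 4 comparisons, ordered by step; filled points have an adjusted p under 0.05. In old MICT against old control 22 points are filled and all lie above 0, and in old control against adult control the 5 filled points lie below 0.

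The slides differ between these groups, and the call rests on several choices. Old MICT and old controls lie on different slides. In the comparison within slide 3, old MICT against old HIIT, 35 of the 37 differences were positive with a median of 0.30. Of all 23716 features 14560 differences were positive. Of the 37 genes 0 were called, and the share called among all features was 0%. An unadjusted p under 0.05 was found for 15 of the 37 and for 3982 of all features. An additive model of age, regimen and slide gives 1 MICT effect for both ages. It has as many terms as groups. Its MICT effect equals the difference of old MICT from old HIIT plus that of adult HIIT from adult controls. That estimate uses no old control and no adult MICT array, so it cannot decide whether the difference from old controls holds. In this model 0 of the 37 were called (4 at an unadjusted p under 0.05) and their median was 0.31. In a fit of the 8 compared arrays alone 0 of the 37 were called (24 at an unadjusted p under 0.05), and so were 0 of the 23716 features. Without old controls 1 and 2 the count was 0 of 37 (21 at an unadjusted p under 0.05) with a median of 0.42. Without old MICT 1 and 2 it was 0 of 37 (14 at an unadjusted p under 0.05) with a median of 0.30. With each single array left out in turn, between 16 and 24 genes were called higher. Except in that fit of 8 arrays, counts under other settings, here and below, are given without the share of all features called. A change in them is therefore no result about these genes alone. Quantile scaling lowered the median of all features to 0.06 and left 15 genes called higher and 1, Ctsb, called lower.

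Within the ULK1 complex, Ulk1 itself, the kinase that starts autophagosome formation, had the largest difference of all 37 genes. Its level was 7.85, 6.40, 5.90 and 5.91 on old MICT arrays 1 to 4, against 4.83, 4.74, 5.20 and 4.62 in old controls 1 to 4. All 4 old MICT arrays lay above all old controls, array 1 far above the other 3. The difference was 1.67 ± 0.36, or 3.18-fold (limma adjusted p = 0.00517). Atg13, which links the kinase to its partners, stood at 5.90, 5.67, 4.73 and 4.74 after MICT, against 4.22, 4.07, 4.55 and 3.91 in old controls. Arrays 1 and 2 were again the high ones and the groups did not overlap (1.07 ± 0.26, adjusted p = 0.00821). Rb1cc1, the scaffold also called FIP200, was at 2.28, 1.89, 1.69 and 1.50 against 0.79, 1.10, 1.34 and 1.27, without overlap (0.72 ± 0.17, adjusted p = 0.00665). The other 2 subunits were not called. Ulk2, a second kinase of the ULK type, differed by 0.40 ± 0.16 (adjusted p = 0.0642) and Atg101, which stabilises ATG13, by -0.02 ± 0.14.

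Among the PI3-kinase genes the lipid kinase Pik3c3 and its alternative partners rose, while the shared subunits Becn1 and Pik3r4 were not called. Atg14, the partner that directs the kinase to autophagosome formation, measured 2.43, 1.93, 1.47 and 1.55 after MICT, against 1.05, 0.94, 1.12 and 1.01 in old controls. The old controls lay close together and all 4 trained arrays lay above them (0.81 ± 0.18, adjusted p = 0.00510). Pik3c3 measured 0.93, 0.69, 0.38 and 0.39 against -0.43, -0.11, 0.05 and -0.06, also without overlap (0.74 ± 0.18, adjusted p = 0.00845). Uvrag, the partner that serves later, endosomal steps, measured 3.59, 3.25, 3.08 and 3.03 against 2.82, 2.84, 2.74 and 2.80 (0.44 ± 0.13, adjusted p = 0.0186). Becn1, which holds both complexes together, differed by 0.22 ± 0.12, and Pik3r4, the regulatory subunit, by 0.21 ± 0.10.

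Of the genes that supply membrane and read PI3P, both WIPI genes rose. Wipi2, which brings the conjugation machinery to the membrane, measured 1.30, 0.77, 0.24 and 0.39 after MICT, against -0.20, 0.12, 0.08 and -0.33 in old controls, without overlap (0.76 ± 0.20, adjusted p = 0.0106). Wipi1, its relative, measured 3.95, 3.52, 3.44 and 3.02 against 2.21, 2.64, 3.06 and 3.06. Here old MICT array 4 lay below 2 old controls, and the difference was 0.74 ± 0.21 (adjusted p = 0.0143). Atg2a, which transfers lipid to the growing membrane, rose by 0.59 ± 0.18 (adjusted p = 0.0185). Atg9a, which scrambles lipid in vesicles that seed the membrane, differed by 0.42 ± 0.16 and was not called (adjusted p = 0.0559).

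Of the enzymes that attach Atg8 proteins to the membrane, 2 of 6 rose, and the median of the 6 was 0.31. Atg12, a ubiquitin-like protein joined to ATG5, measured 3.94, 4.07, 3.57 and 3.59 after MICT, against 3.45, 3.35, 3.46 and 3.26 in old controls, without overlap (0.41 ± 0.13, adjusted p = 0.0281). A second, dimmer probe of Atg12 gave 0.42 and was not called (adjusted p = 0.0669 over all probes). Atg16l1, which carries the ATG12-ATG5 pair to the membrane, measured 1.12, 1.05, 0.69 and 0.80 against 0.34, 0.48, 0.64 and 0.36 (0.46 ± 0.14, adjusted p = 0.0197). The other 4 were not called. Atg5, the target of ATG12, differed by -0.03 ± 0.11, the activating enzyme Atg7 by 0.22 ± 0.16, the transfer enzyme Atg3 by 0.28 ± 0.13 and the protease Atg4b, which trims Atg8 proteins, by 0.34 ± 0.20.

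In the Atg8 family, whose members coat the autophagosome, 4 of 5 genes rose, by very different amounts. Gabarapl1 measured 8.98, 7.77, 6.91 and 6.41 after MICT, against 6.00, 5.87, 6.12 and 5.78 in old controls, so that the trained arrays spread over 2.56 log2 units (1.57 ± 0.43, 2.98-fold, adjusted p = 0.0125). Map1lc3b, which encodes LC3B, measured 7.34, 6.38, 5.92 and 5.94 against 5.08, 5.08, 5.27 and 5.16 (1.25 ± 0.28, adjusted p = 0.00621). In both genes array 1 was the highest and no trained array reached down to the old controls. Gabarapl2 measured 5.54, 5.61, 5.37 and 5.41 against 4.91, 5.06, 5.35 and 5.13, a small difference with little spread between trained arrays (0.37 ± 0.10, adjusted p = 0.0113). Map1lc3a, which encodes LC3A, measured 5.04, 5.21, 4.71 and 4.70 against 4.39, 4.41, 4.64 and 4.04 (0.55 ± 0.15, adjusted p = 0.0118). Gabarap, the founding member of its subfamily, differed by 0.14 ± 0.08 and was not called.

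The receptors, which bind cargo and Atg8 proteins at once, included the gene with the smallest p of the 37. Sqstm1, which encodes p62, measured 4.95, 4.50, 3.72 and 3.97 after MICT, against 2.91, 2.97, 3.39 and 2.90 in old controls. The groups did not overlap and old control 3 stood above the other old controls (1.24 ± 0.25, 2.37-fold, adjusted p = 0.00386). Nbr1, a receptor of similar build, measured 1.09, 0.83, 0.18 and 0.17 against -0.44, -0.30, -0.13 and -0.24 (0.84 ± 0.19, adjusted p = 0.00573). Of the receptors on mitochondria, Bnip3 measured 9.23, 8.53, 7.93 and 7.73 against 7.08, 6.95, 7.63 and 6.89 (1.22 ± 0.26, adjusted p = 0.00510). Its paralog Bnip3l, also called Nix, measured 6.61, 6.29, 5.33 and 5.37 against 4.95, 5.13, 5.10 and 5.22 (0.80 ± 0.21, adjusted p = 0.0106). In both, arrays 1 and 2 stood well above arrays 3 and 4, which still lay above every old control. Pink1, the kinase that flags damaged mitochondria, rose by 0.54 ± 0.13 (adjusted p = 0.00916). Fundc1, a further mitochondrial receptor, measured 2.52, 2.89, 3.05 and 3.17 against 2.77, 2.83, 2.98 and 2.83. Its groups overlapped and its lowest value was on old MICT array 1, where Sqstm1, Nbr1, Bnip3 and Bnip3l were highest (0.06 ± 0.14).

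**Figure D2:**
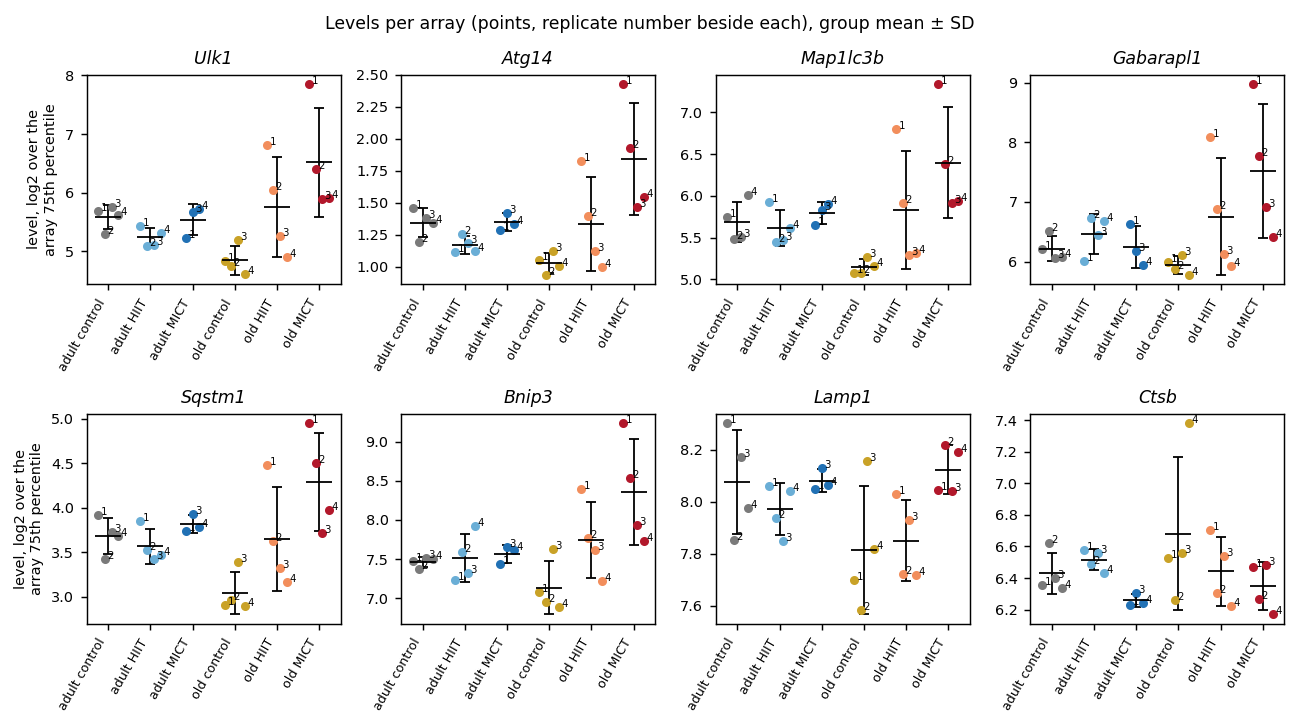
Levels of 8 of the genes on each array (points, with the replicate number), in log2 units over the array's 75th percentile, with the mean and SD of each group. In Ulk1, Map1lc3b, Gabarapl1, Sqstm1 and Bnip3 old MICT array 1 is the highest of all 23 arrays and old HIIT array 1 the highest of its group; Ctsb has its highest value in old control 4.

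At the lysosome, the end of the pathway, 2 of 6 genes rose. Tfeb measured 2.21, 2.09, 1.80 and 2.30 after MICT, against 1.24, 1.19, 1.61 and 1.58 in old controls, without overlap and with no array standing out (0.70 ± 0.19, adjusted p = 0.0120). Lamp1, an abundant protein of the lysosomal membrane, measured 8.04, 8.22, 8.04 and 8.19 against 7.70, 7.58, 8.15 and 7.82. Old control 3 lay within the trained range and the call was narrow (0.31 ± 0.11, adjusted p = 0.0469), kept in 14 of 38 other settings. Lamp2, the second such protein, differed by 0.06 ± 0.13. The 3 cathepsins, proteases of the lysosome, were not called. Ctsl measured 7.95, 6.67, 6.17 and 5.91 against 5.81, 5.91, 5.76 and 6.50, so that array 1 stood apart and old control 4 reached into the trained range (0.68 ± 0.31, adjusted p = 0.0983). Without old MICT array 4 Ctsl was called (0.94, adjusted p = 0.0329). Ctsd differed by 0.31 ± 0.15 on its bright probe (adjusted p = 0.118) and by 0.63 ± 0.23 on a dimmer one (adjusted p = 0.0454 over all probes). Ctsb was the only cathepsin with a negative difference, at 6.47, 6.27, 6.48 and 6.17 against 6.53, 6.26, 6.56 and 7.38 (-0.33 ± 0.16, adjusted p = 0.121), with old control 4 far above all others. With quantile scaling Ctsb was called lower (-0.61, adjusted p = 0.0129).

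Wider lists of the pathway were read in the same comparison, in which 21.3% of all features were called higher and 9.03% lower. Of 35 other autophagy genes, 22 were called higher (62.9%) and 0 lower in old MICT against old controls, with a median of 0.47. The 3 with the smallest p were Tax1bp1 (0.82 ± 0.18, adjusted p = 0.00528) and Optn (0.84 ± 0.20, adjusted p = 0.00738), both cargo receptors, and Wdr45, a PI3P reader (0.62 ± 0.15, adjusted p = 0.00688). Of 24 regulators, 10 were called higher (41.7%) and 0 lower, with a median of 0.42. They included Mtor, the kinase that restrains autophagy (0.70 ± 0.13, adjusted p = 0.00347), Ddit4, an inhibitor of that kinase's complex (3.09 ± 0.77, adjusted p = 0.00902), and Foxo1, a transcription factor (2.05 ± 0.52, adjusted p = 0.00942). Of 16 subunits of the proton pump that acidifies the lysosome, 4 were called higher and 0 lower (median 0.27), a share of 25% that lies near the background. The smallest p were those of Atp6v1d (0.41 ± 0.10, adjusted p = 0.00846), Atp6v1h (1.33 ± 0.37, adjusted p = 0.0136) and Atp6v1f (0.26 ± 0.09, adjusted p = 0.0359). Of 46 other lysosomal hydrolases and membrane proteins, 4 were called higher (8.7%) and 14 lower (30.4%), with a median of -0.20. The smallest p there were those of Ctsh, a cathepsin (-1.27 ± 0.25, adjusted p = 0.00373), Glb1, the lysosomal beta-galactosidase (-1.16 ± 0.24, adjusted p = 0.00494), and Gaa, which breaks down glycogen in the lysosome (0.72 ± 0.15, adjusted p = 0.00494).

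Markers of some other cell types moved with the same comparison, in which 21.3% of all features were called higher and 9.03% lower. Of 7 adipocyte and 7 neutrophil markers 0 were called (0 at an unadjusted p under 0.05). Of 7 measured B and plasma cell markers 5 were called lower after MICT, of 7 T and NK cell markers 4, and of 10 macrophage markers 5, and 4 of 6 fibroblast markers were called lower and 1 higher. The summed level of the macrophage markers, in multiples of the array's 75th percentile, ran from 51.5 to 155.0 in old controls, 43.5 to 66.9 in old HIIT, 36.1 to 59.0 in old MICT and 41.5 to 86.9 in adult controls. The highest, 155.0, was on old control 4, the array with the highest Ctsb. The summed B and plasma cell level ran from 2.7 to 65.4 in old controls and from 1.1 to 2.2 in old MICT. The markers Ms4a1, Cd79a and Spib were not well above background on any adult array, and Klrb1c, a T and NK cell marker, on none of the 23. Of 7 markers of slow-twitch fibres 0 were called (0 at an unadjusted p under 0.05), with a median difference of -1.07. Of 8 muscle fibre markers 3 were called higher (37.5%), with summed levels of 3589.7 to 6507.8 in old controls and 4908.6 to 7460.9 in old MICT. Of 8 fast-twitch markers 2 were called higher (25%), a share near that of all features. In a whole muscle, fewer cells of a type and less RNA per cell cannot be told apart, and the part of these markers in the differences was not tested. Without old controls 1 and 2, the arrays highest in lymphocyte markers, 0 of the 37 genes were called and their median was 0.42, as given above. Without old control 4 and old HIIT 1, the arrays highest in neutrophil markers, 21 genes were called higher.

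The difference was not spread evenly over the trained old mice. Set against the range of the 4 adult controls, 24 and 23 of the 37 genes lay above it on old MICT arrays 1 and 2, and 14 and 11 on arrays 3 and 4. For all features those shares were 33.7% and 35.7%, then 22.6% and 25.6%. Old MICT array 1 held the highest level of its group for 22 of the 37 genes (59.5%), against 25.1% of all features. The genes that spread most between the 4 trained arrays were Gabarapl1 (2.56 log2 units from lowest to highest), Ctsl (2.04), Ulk1 (1.96), Bnip3 (1.50) and Map1lc3b (1.42), while Gabarap spanned 0.14.

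**Figure D3:**
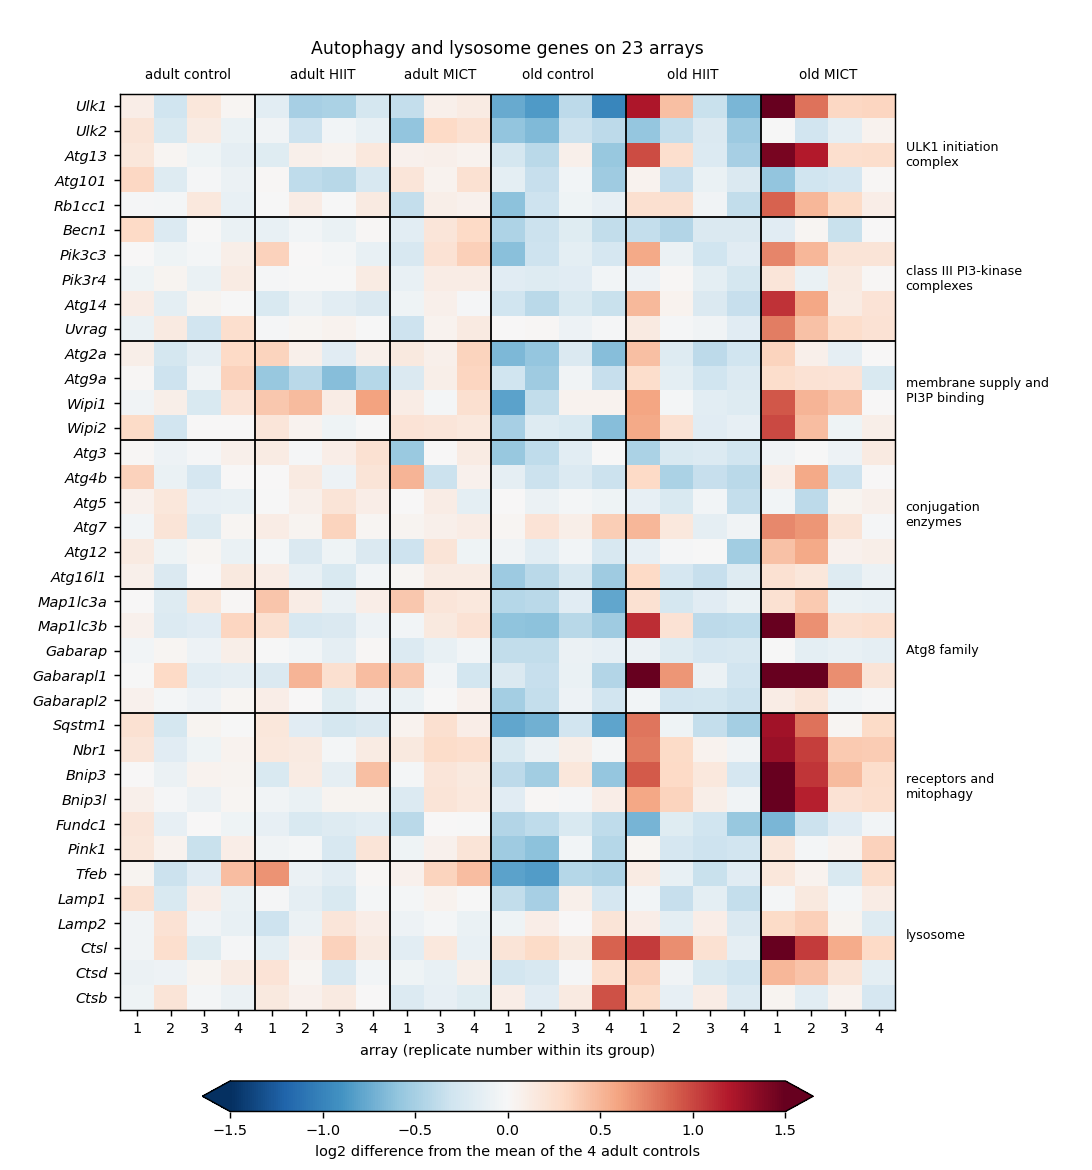
Each row is 1 of the 37 genes, grouped by step, and each column 1 of the 23 arrays; colour is the log2 difference from the mean of the 4 adult controls, red for higher and blue for lower. Most rows are blue in old controls. The darkest red lies in old MICT arrays 1 and 2 and old HIIT array 1. It is found in Ulk1, Atg13, Map1lc3b, Gabarapl1, Sqstm1, Nbr1, Bnip3, Bnip3l and Ctsl.

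HIIT in old mice gave 0 called genes of the 37, against 0.493% of all features called. Of the 37 genes 9 had an unadjusted p under 0.05, as did 3750 of all 23716 features. The median difference was 0.20, against 0.08 for all features, and the smallest adjusted p was 0.215, for Tfeb (0.51 ± 0.19). Tfeb, Wipi2 and Map1lc3b, 3 of the 37 genes, were higher in all 4 old HIIT arrays than in any old control, as were 4.59% of features. Old HIIT array 1 stood apart from its group. Ulk1 measured 6.81, 6.05, 5.25 and 4.90 on arrays 1 to 4, Gabarapl1 8.09, 6.88, 6.13 and 5.93, and Sqstm1 4.48, 3.62, 3.32 and 3.17. Array 1 held the highest level of its group for 28 of the 37 genes (75.7%), against 38.0% of all features, and array 4 the highest of 0. On array 1, 20 genes lay above the range of the adult controls, and on array 4 there were 0 above and 25 below. For all features the shares were 30.1% above on array 1, and 19.5% above and 33.5% below on array 4. The summed neutrophil marker level was 78.4 on array 1, 216.8 on old control 4 and at most 30.5 on any other array, and its part in these values was not tested.

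Old MICT against old HIIT, which compares the regimens within 1 slide, called 0 of the 37 genes. An unadjusted p under 0.05 was reached by 3982 of all 23716 features and by 15 of the 37 genes. The smallest adjusted p was 0.220, shared by Uvrag (0.45 ± 0.13), Atg12 (0.45 ± 0.13) and Gabarapl2 (0.29 ± 0.10). Uvrag, Atg12, Atg3 and Lamp1, 4 of the 37 genes, were higher in every old MICT array than in any old HIIT array, as were 4.25% of features. Atg12 measured 3.38, 3.49, 3.50 and 2.98 in old HIIT, and Uvrag 2.96, 2.80, 2.77 and 2.64. The median difference of 0.30 stood beside 0.09 for all features. This comparison shares its old MICT arrays with the one against old controls.

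**Figure D4:**
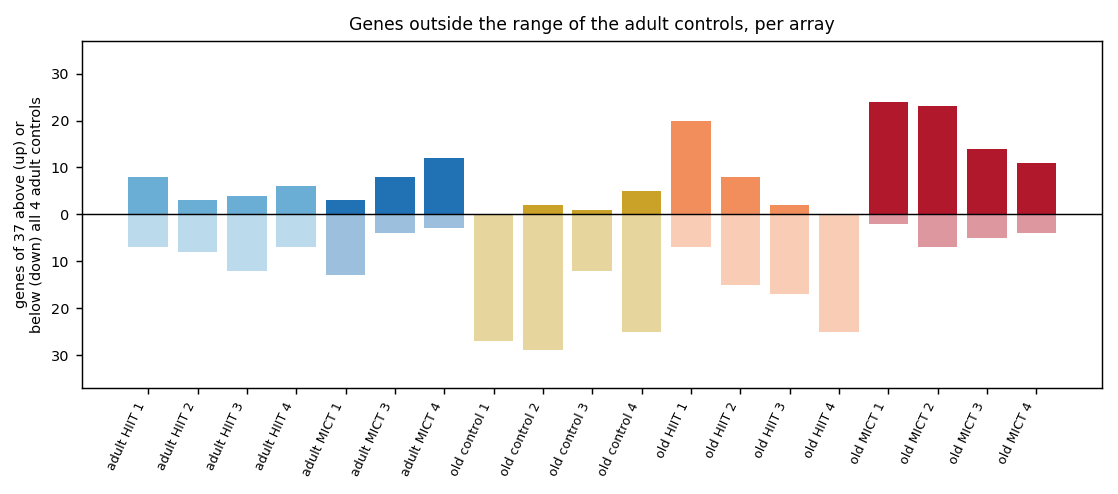
For each array outside the adult controls, the number of the 37 genes above all 4 adult controls (solid bars, upward) and below all 4 (pale bars, downward). Old controls have 12 to 29 genes below and 0 to 5 above, and old MICT arrays 11 to 24 above and 2 to 7 below. On old controls 20.6% to 51.1% of all features lay below and 19.0% to 23.6% above. On old MICT arrays 22.6% to 35.7% of all features lay above and 17.1% to 27.2% below.

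The comparison of old with adult controls asks what age did to the same genes in sedentary mice. Of the 37 genes, 0 rose and 5 fell. An unadjusted p under 0.05 was found for 13 of the 37 and for 7746 of all 23716 features. Among all features 4.55% were called higher and 8.3% lower. The share of these genes called lower was 13.5%, not far from that background, and with 5 calls it is no result about the genes as a set. The median difference was -0.28, against -0.14 for all features, and 33 of 37 differences were negative, as were 15136 of the 23716 features. Every old control lay below every adult control in 10 of the 37 genes, and in 10.7% of all features. Tfeb measured 1.24, 1.19, 1.61 and 1.58 in old controls and 2.08, 1.71, 1.86 and 2.49 in adult controls, without overlap (-0.63 ± 0.19, adjusted p = 0.0347). Ulk2 measured 1.35, 1.28, 1.62 and 1.55 against 2.14, 1.72, 2.08 and 1.85, also without overlap (-0.50 ± 0.16, adjusted p = 0.0484). Atg16l1 fell by 0.43 on the log2 scale (SE 0.14, adjusted p = 0.0462) and its groups did not overlap. Map1lc3a fell by 0.44 (SE 0.15, adjusted p = 0.0494) and Gabarapl2 by 0.31 (SE 0.10, adjusted p = 0.0427), each with 1 old control, array 3, inside the adult range. Old control 3 was the highest old control for 24 of the 37 genes, against 42.0% of all features.

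These 5 calls lay close to the threshold. Array weights gave 14 called genes, leaving out old control 3 gave 11, and leaving out old control 1 or 2, or adult control 1 or 4, gave 0. A fit of the 8 arrays alone also gave 0 of 37 called (16 at an unadjusted p under 0.05). The age term of the additive model with slide called 0 of 37 too, with a median of 0.01 (2 at an unadjusted p under 0.05). That term is not old minus adult controls. It equals old controls minus adult MICT, plus the model's MICT effect described above, and takes training effects as equal at both ages. It therefore cannot decide whether the age difference holds. Age and slide cannot be told apart in these controls, since old controls lie on slide 2 and adult controls on slide 1. Of the other genes, Sqstm1 differed by -0.64 ± 0.25 (adjusted p = 0.0813), Ulk1 by -0.74 ± 0.36 (adjusted p = 0.157) and Map1lc3b by -0.54 ± 0.28 (adjusted p = 0.189), all 3 without overlap. The lysosomal genes Ctsl (0.38 ± 0.31), Ctsb (0.25 ± 0.16) and Lamp2 (0.06 ± 0.13), and the conjugation enzyme Atg7 (0.17 ± 0.16), were the 4 with a positive difference, and none was called.

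In the wider lists, 3 of 35 other autophagy genes were called lower with age (8.57%) and 0 higher, and 2 of 24 regulators (8.33%) were called lower and 0 higher. Both shares are close to the 8.3% of all features called lower. The 3 autophagy genes were Wdr45 (-0.56 ± 0.15, adjusted p = 0.0217), Fyco1, which moves autophagosomes along microtubules (-0.54 ± 0.14, adjusted p = 0.0236), and Tecpr2 (-0.43 ± 0.12, adjusted p = 0.0302). The regulators were Foxo4 (-0.95 ± 0.23, adjusted p = 0.0179) and Akt1s1 (-0.78 ± 0.23, adjusted p = 0.0354). Of the 46 lysosomal hydrolases and membrane proteins 5 were called higher (10.9%, against 4.55% of all features) and 0 lower, among them Npc2, a cholesterol carrier (0.52 ± 0.14, adjusted p = 0.0224), and Ctss, a cathepsin of antigen-presenting cells (1.80 ± 0.49, adjusted p = 0.0267). Of 16 proton pump subunits 1 was called higher, Atp6v0e (0.49 ± 0.16, adjusted p = 0.0462), and 1 lower, Atp6v1g1 (-0.37 ± 0.12, adjusted p = 0.0499). In the same comparison 5 of 7 B and plasma cell markers, 4 of 7 T and NK cell markers, 3 of 7 adipocyte markers and 1 of 10 macrophage markers were called higher, and 2 of 8 muscle fibre markers lower. All 7 adipocyte markers, with a median difference of 2.35, had an unadjusted p under 0.05, as did 7746 of all 23716 features. The part of all these markers in these differences was not tested.

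Set against adult rather than old controls, old MICT called 0 of the 37 genes, while 0.54% of all features were called. An unadjusted p under 0.05 was seen for 4381 of all 23716 features and for 17 of the 37 genes. The smallest adjusted p was 0.0579, for Nbr1 (0.78 ± 0.19). Ulk1, Atg13, Pik3c3, Atg14, Nbr1, Bnip3, Bnip3l and Ctsl were higher on all 4 old MICT arrays than on any adult control, 8 genes (21.6%) against 5.93% of features. The difference was 0.93 ± 0.36 for Ulk1, 0.89 ± 0.26 for Bnip3, 1.06 ± 0.31 for Ctsl and 1.30 ± 0.43 for Gabarapl1. It was near 0 for genes that had been called lower with age, 0.06 ± 0.19 for Tfeb, 0.03 ± 0.14 for Atg16l1, 0.06 ± 0.10 for Gabarapl2, 0.10 ± 0.15 for Map1lc3a and -0.09 ± 0.16 for Ulk2. These genes were picked with the same adult controls. Old MICT and adult controls also differ in age, training and slide at once, and a return to the adult level was not tested. Without old MICT array 3 or array 4, 6 or 8 genes were called higher. Of the 24 regulators 1 was called higher, Ddit4 (3.55 ± 0.77, adjusted p = 0.0445). Old HIIT against adult controls called 0 of the 37 genes, against 0.0169% of all features. Their median was -0.06, and 6 of them had an unadjusted p under 0.05, as did 2806 of all 23716 features.

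In adult mice the same regimens gave no called gene. Adult HIIT against adult controls called 0 of 37 genes and 0% of all features, and the median of the genes was 0.02. At an unadjusted p under 0.05 there were 1206 of 23716 features and 1 of the genes. That gene was Atg9a, at -0.52, -0.36, -0.60 and -0.38 in adult HIIT and 0.06, -0.26, -0.01 and 0.39 in adult controls, on the same slide and without overlap (-0.51 ± 0.16, adjusted p = 0.922). Adult MICT against adult controls called 0 of 37 and 0% of all features, and the median of the genes was 0.05. At an unadjusted p under 0.05 there were 487 of 23716 features and 0 of the genes. Adult MICT against adult HIIT called 0 of 37 and 0% of features, with 2 genes and 1839 of 23716 features at an unadjusted p under 0.05. The 2 genes were Atg9a (0.58 ± 0.18) and Atg101 (0.40 ± 0.15). Ulk1 measured 5.69, 5.29, 5.76 and 5.62 in adult controls, 5.43, 5.09, 5.11 and 5.32 in adult HIIT, and 5.23, 5.66 and 5.72 in adult MICT. Within the adult groups the 37 genes had a median range of 0.36, 0.28 and 0.26 log2 units in controls, HIIT and MICT, against 0.44, 0.61 and 0.55 in old controls, HIIT and MICT. For all features the values were 0.52, 0.55 and 0.47 in the adult groups and 0.65, 0.62 and 0.67 in the old ones. Adult MICT has 3 arrays and the others 4, so its range is not directly comparable.

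Whether the response to MICT differed between ages was tested as an interaction. Of the 37 genes 0 passed, against 0.696% of all features called. An unadjusted p under 0.05 was found for 17 of the 37 and for 6005 of all 23716 features. The median of the difference between responses was 0.42, against 0.20 for all features. Of the 37 values 34 were positive, as were 15174 of those of the 23716 features. The smallest adjusted p was 0.0953, for Ulk1 (1.72 ± 0.53), followed by Rb1cc1 (0.79 ± 0.25, adjusted p = 0.0969) and Atg14 (0.81 ± 0.26, adjusted p = 0.101). Thus 22 genes passed in old mice and 0 in adult mice, but limma's test of the difference passed for none of the 37. Without old control 3 the interaction called 5 genes. For HIIT 0 of the 37 genes and 0% of all features passed, with 2 genes at an unadjusted p under 0.05, Ulk1 (1.26 ± 0.51) and Atg9a (0.72 ± 0.23).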

How the data were processed

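Each array measured RNA of 1 muscle sample, and groups were taken from the labels, which state 4 mice per group. P-values measure the spread between these samples. Per the file headers, Agilent Feature Extraction 12.0.3.1 made the deposited intensity values, which are background subtracted within each array and not scaled between arrays. Of 59305 gene spots per array, outlier spots were left out and the spots of a probe averaged, giving 55398 probes. To the log2 of the deposited intensity each array's 75th percentile was applied as the zero. Probes well above background on at least 3 arrays (31950) were tested. Accessions led to symbols through RefSeq's GRCm38.p6 gene table (28325 of 29786), and a gene took its brightest probe. Differences came from limma 3.58.1 in R 4.3.3, with 11 comparisons of 6 group means over all 23 arrays, 17 residual degrees of freedom, an intensity trend and Benjamini-Hochberg adjustment over 23716 features. A deposited score for every spot, of unstated making, followed the log2 signal with r of at least 0.9995 on each array. Its column medians lay between -0.4 and -0.2, its scale and centring stay unknown, and it served as an alternative for counts only.

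The members, their steps and the wider lists were chosen with earlier results of these data known. All members were named. Values per array are given for up to 3 genes of a step with the smallest p and for exceptions. Of the wider lists, the rule takes the 3 genes with the smallest p in each comparison that calls any gene of the list, and those not called are left out. 1 gene that the rule takes is not reported here. Groups share replicate numbers, but the deviations of same-numbered arrays from their group means correlated by 0.03 on average over 55 pairs (-0.44 to 0.40), so arrays were not paired. Tested on simulated data for old MICT against old control with 23716 features, limma called 9, 29 and 40 of 50 features raised by 0.5, 1 and 2 on the log2 scale and 39 of 50 lowered by 2, with 7 false calls. Only these features were changed, whereas in the data 21.3% of features were called higher and 9.03% lower. The simulated share of calls therefore does not carry over to that comparison. The number of arrays limits the precision. Alternatives were normexp background correction, quantile or median scaling, other filters on dim probes, other variance settings, weights per array, the replicate number as a block, slide as an additive term, fits of the compared groups alone, the mean over probes, the deposited score, and leaving out each array. Leaving out 3 pairs of arrays was added after seeing the data.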

Additional observations from a re-analysis of the deposited data

Results flagged for a closer look

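Of 185 sets of 4 arrays (1 gene in 1 group), 7 held an array whose gap to the nearest other exceeded Dixon's critical share of the group's range, and chance flags about 1 in 20. Of these 3 were on old HIIT array 1, where Gabarapl2 measured 5.38 (nearest 5.15), Pink1 7.65 (nearest 7.37) and Atg4b -0.58 (nearest -1.22), all the highest of the group. Sqstm1 measured 3.39 on old control 3 (nearest 2.97), and Lamp2 4.515 on adult control 2 (nearest 4.24). Pik3r4 measured 1.215 on adult HIIT array 4 (nearest 1.08). Atg9a measured -0.18 on old MICT array 4, the lowest of its group (nearest 0.25).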

How the results depend on the processing

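For old MICT against old control, the 22 genes called became 0 with only the compared groups, 0 without old controls 1 and 2 and 0 without old MICT 1 and 2 (these 3 use fewer arrays). The additive model with slide also called 0, but its MICT effect uses no old control, so it is not a fit of that comparison. The genes called were 16 to 24 when each array was left out, and the median of the 37 genes stayed between 0.30 and 0.53. For old against adult controls, the 5 genes called became 2 with quantile scaling, 8 with median scaling, 1 with no filter on dim probes, 2 with no intensity trend and 14 with array weights. They became 0 with only the compared groups, 0 without old controls 1 and 2, then 2 when old control 4 and old HIIT 1 were left out. They ranged from 0 to 11 when each array was left out. The age term of the additive model called 0 but draws on trained groups, so it is not a fit of that comparison. The cause of these changes was not tested. Comparisons with 0 genes called gained some under a few settings. These were adult MICT against adult HIIT (3 with array weights), old HIIT against adult control (3 with median scaling, 2 with array weights), old MICT against adult control (1 without old control 4 and old HIIT 1, 0 to 8 when each array was left out) and the MICT interaction (3 with array weights, 0 to 5 when each array was left out). With the replicate block, which rests on shared numbers only, 22 genes were called for old MICT and 5 for age, and 0 in the other comparisons. No direction of a called gene reversed. These counts are given without the share of all features called in the same setting, so they are no result about these genes alone. The deposited score gave counts only, and the additive model gives no interaction. Slide and group cannot be told apart for old MICT against old control, and transcripts do not measure autophagic flux. With 4 arrays a group small changes can stay uncalled. In the simulation 9 of 50 features raised by 0.5 were called, but it changed far fewer features than were called in the data. Its share of calls therefore does not carry over.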
